A study of Mus musculus with 24 samples.

Results

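Naive mouse embryonic stem cells lacking Atf3 (KO, Atf3 KO Mes cells in the labels) were set against wild-type cells (WT, Mes cells in the labels) at day 0, the undifferentiated state. The comparison rests on 6 of the 24 RNA-seq libraries of the study, 3 of KO and 3 of WT cells, while the other 18 were from days 3, 6 and 9 of differentiation. The study asked what loss of Atf3 does to mesodermal and endothelial differentiation, and both lines start from the state described here. Per the labels' protocols, cells of both genotypes grew in high-glucose medium with 15% fetal bovine serum and 1000 U/mL leukaemia inhibitory factor (LIF). Also added were 3 µM CHIR99021, which inhibits the kinase GSK3, and 1 µM PD0325901, which inhibits the kinase MEK. The labels give neither the part of Atf3 that was edited, nor whether the KO line is 1 clone, nor the sex of the cells, and they name no feeder layer. Poly(A)+ RNA was sequenced in paired reads. Levels are the deposited FPKM (a gene's fragments for each kilobase of its exons, relative to the size of its library). A gene was tested where 3 or more of the 6 libraries had 1 FPKM or more, which left 11762 of 53465 genes, 9743 of them protein-coding.

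Naive pluripotency is the state of the preimplantation epiblast, held in culture when LIF activates STAT3, the GSK3 inhibitor raises Wnt signalling and the MEK inhibitor blocks ERK signalling. The factors OCT4 (Pou5f1), SOX2 and NANOG keep it together with ESRRB, TFCP2L1 and the Klf factors. On leaving it, cells switch on Otx2, Fgf5 and the de novo methyltransferases, and only then the genes of the germ layers. ATF3 is a transcription factor of the ATF/CREB family that stress, growth signals and injury induce, and it binds the ATF/CRE type of motif as a dimer with itself or with Jun proteins.

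The promoters of Atf3, the targeted gene, and of Nanog, a defining gene of the state, are shown because their levels open the results below. Both are RefSeq windows of build GRCm38.p6, 5′ to 3′ on the strand of the gene, and the 250 bases before the start are printed. Atf3 lies on the minus strand (chr1:191183334-191183583), and capitals mark a match to TGACGTNA, the ATF/CRE type of motif, on the opposite strand, from 10 to 3 bases before the start. Nanog lies on the plus strand (chr6:122707239-122707488), and capitals mark a match to CATTGT, any base and ATGCAAA, a joint SOX and OCT type of motif, also on the opposite strand, from 75 to 62 bases before the start.
Atf3: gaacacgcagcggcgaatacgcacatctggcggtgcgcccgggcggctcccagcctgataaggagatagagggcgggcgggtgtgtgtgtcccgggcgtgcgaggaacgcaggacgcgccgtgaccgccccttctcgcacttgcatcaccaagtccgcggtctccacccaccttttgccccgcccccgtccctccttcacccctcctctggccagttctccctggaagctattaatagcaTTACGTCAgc
Nanog: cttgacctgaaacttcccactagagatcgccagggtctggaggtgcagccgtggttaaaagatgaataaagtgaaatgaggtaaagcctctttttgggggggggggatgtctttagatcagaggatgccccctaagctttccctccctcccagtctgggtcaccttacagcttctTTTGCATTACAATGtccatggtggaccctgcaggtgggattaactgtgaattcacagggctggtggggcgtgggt
Both motifs were searched on both strands of 32851 RefSeq windows of 300 bases, 250 before and 50 after a start. TGACGTNA occurred in 963 of them (2.93%), and the longer motif in 2, both of them windows of Nanog. The motifs do not overlap each other, and a match describes the letters only. The start that RefSeq gives for this Atf3 window lies inside the wider gene span given below.

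WT replicate 1 stood apart from the other libraries. KO values are given throughout for replicate 1, replicate 2 and the library that the labels tie to no numbered title. That library has column number 2, as has WT replicate 2. WT values are given for replicates 1, 2 and 3. Depth, as reads recovered from the deposited values, was 15636000 to 16920617 in KO libraries and 14230245 to 15587540 in WT libraries. Of these reads 27.0% to 28.7% in KO and 25.7% to 32.8% in WT libraries fell on genes of rRNA type, of which Gm42418 and CT010467.1 overlap. Distances between libraries, as root mean squares of log2 differences over the tested genes, were 0.276 to 0.310 within KO, 0.277 to 0.389 between KO and WT, and 0.262 to 0.424 within WT, so the farthest pair was one of WT libraries. WT replicate 1 lay 0.42 or more from the other WT libraries, which were 0.262 from each other. Its deviations followed the GC content of the genes, with a median of -0.25 in the tenth of genes lowest in GC and 0.31 in the tenth highest in it. The result that turned on it was the count of genes with an unadjusted p under 0.05 in limma, 286 with it (2.43%) and 1773 without it (15.1%), while no gene passed adjustment without it.

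Atf3 was already low in WT cells in the naive state, and lower still in KO cells. It had 0.217, 0.165 and 0.134 FPKM in KO cells, against 1.38, 3.06 and 1.15 FPKM in WT cells. These levels rest on 6, 5 and 4 reads in the KO libraries, against 33, 84 and 31 reads in the WT libraries, so each KO library lay below each WT library and neither group was listed at 0. The log2(FPKM + 1) difference was -1.23 (95% interval -1.75 to -0.71), and it did not pass (adjusted p = 0.507 in limma, with Benjamini-Hochberg adjustment over all 11762 genes). An exact two-sided permutation test gave p = 0.1, the smallest that 3 against 3 libraries allow. Atf3 entered the test through its WT libraries alone, since no KO library reached 1 FPKM. The added 1 compresses the difference of so low a gene, and on the reads themselves, with limma's voom weights, it was -3.22 (adjusted p = 0.268 in limma). Among protein-coding genes Atf3 held rank 9643 of 22040 by its mean over the 6 libraries. It spans mm10 chr1:191170296-191218039 on the minus strand, and the deposited values do not say in which exons the remaining reads lie.

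**Figure D1:**
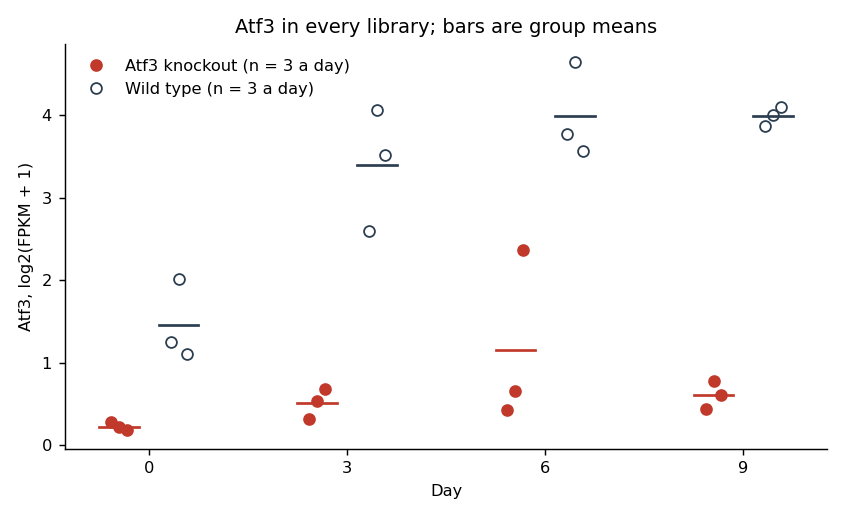
Atf3 in each library as log2(FPKM + 1), by day, with KO libraries filled and WT libraries open (n = 3 a group) and bars at group means on that scale. KO values at day 0 lay between 0.134 and 0.217 FPKM, below the WT values of 1.15 to 3.06 FPKM, and WT values were higher at each later day.

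The later days were used only to set the day 0 difference against them, in a limma fit of all 24 libraries in 8 groups on the same 11762 genes. In WT cells Atf3 was higher at day 3 than at day 0 by 1.94 on the log2 scale (adjusted p = 0.0011 in limma). The KO minus WT difference of Atf3 was -1.23 for day 0, -2.88 for day 3, -2.84 for day 6 and -3.38 for day 9. Less the day 0 difference, those of the later days came to -1.65, -1.61 and -2.15 in the order of the days. None of these interactions passed adjustment over all genes in limma (adjusted p = 1, 0.963 and 0.694).

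The transcription factors that define the state were high in all 6 libraries and differed little between genotypes. Pou5f1, which encodes OCT4, had 644, 596 and 637 FPKM in KO cells, against 759, 578 and 597 FPKM in WT cells, and was the protein-coding gene of rank 33. Sox2, its partner on DNA, had 126, 129.9 and 142 FPKM in KO cells, against 113, 138 and 125 FPKM in WT cells. Nanog had 293, 351 and 282 FPKM in KO cells, against 272, 331 and 333 FPKM in WT cells. For all of them the values of the groups overlapped. The differences were bounded closely, at -0.03 for Pou5f1 (95% interval -0.32 to 0.26), 0.09 for Sox2 (-0.17 to 0.35) and -0.01 for Nanog (-0.31 to 0.28) on the log2(FPKM + 1) scale. Of the 14 core pluripotency factors listed, all 14 were tested, none passed adjustment, and all 14 intervals lay within a 2-fold difference either way. By comparison, 1 of all 11762 genes tested passed (0.0085%) and 11430 intervals lay within 2-fold (97.2%). All 14 had overlapping groups, where over all genes every KO library lay above every WT library for 427 (3.63%) and below for 394 (3.35%). Counts of genes with separate groups in the lists below are to be read against these shares. The list's median difference was -0.03, against -0.0027 over all genes tested.

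Genes that mark the naive as opposed to a later pluripotent state were abundant in both genotypes as well. Dppa5a, an RNA-binding protein of pluripotent cells, averaged 1446 ± 120.3 FPKM in KO cells and 1452 ± 118 FPKM in WT cells (SD, n = 3 each) and stood at rank 9 of all protein-coding genes. Esrrb, an orphan nuclear receptor, had 183, 199 and 189 FPKM in KO cells, against 214, 168 and 167 FPKM in WT cells. Tfcp2l1, a target of STAT3, had 91.9, 98.9 and 84.4 FPKM in KO cells, against 83.1, 88.8 and 89.7 FPKM in WT cells. For these genes the groups overlapped, and the KO libraries lay inside or next to the WT range. Zfp42 (REX1) averaged 233 ± 21.6 FPKM in KO cells and 259 ± 59.5 FPKM in WT cells. Klf2 averaged 155 ± 44.1 FPKM in KO cells and 169.9 ± 37.1 FPKM in WT cells, and Klf4 80.3 ± 8.15 FPKM in KO cells and 73.0 ± 5.21 FPKM in WT cells. Tdh, the mitochondrial threonine dehydrogenase that mouse stem cells depend on, averaged 293 ± 23.3 FPKM in KO cells and 307 ± 44.6 FPKM in WT cells (SD, n = 3 each). Of 29 naive genes listed, 27 were tested and none passed, 26 had overlapping groups, and 25 intervals lay within 2-fold. Zfp57, which protects imprinted methylation, was the exception to the overlap, with 60.4, 59.3 and 58.0 FPKM in KO cells, against 60.5, 70.6 and 72.5 FPKM in WT cells, a log2 difference of -0.19 that did not pass (adjusted p = 1 in limma). The largest difference in the list was that of Dppa3, a maternal factor that guards methylation, with 2.18, 5.02 and 5.51 FPKM in KO cells, against 2.23, 2.37 and 1.52 FPKM in WT cells (log2 difference 0.73, adjusted p = 1 in limma). KO replicate 1 lay among the WT values of Dppa3.

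Genes of the formative and primed epiblast were divided in the same way in both lines. Fgf5 was at most 0.180 FPKM and Otx2 at most 0.353 FPKM in any library. Pou3f1 (OCT6) reached 2.29 FPKM. In contrast Etv5, an ETS factor, had 156, 141 and 162 FPKM in KO cells, against 169, 132 and 130.3 FPKM in WT cells, and Dnmt3b, a de novo methyltransferase, had 21.7, 16.8 and 23.9 FPKM in KO cells, against 24.9, 16.8 and 16.0 FPKM in WT cells. Neither set of values separated the genotypes. Of 23 such genes in the table, 17 were tested and none passed, with KO above WT in all libraries for Car4, a carbonic anhydrase, and below it for Foxd3 and Sox3. The shares over all tested genes were 3.63% above and 3.35% below. Sox3, a relative of Sox2, had 1.62, 1.34 and 1.79 FPKM in KO cells, against 2.71, 1.86 and 2.12 FPKM in WT cells. None of the 18 measured genes of the 2-cell-like state reached 1 FPKM in any library. The highest of them was Zscan4e, at 0.350 FPKM.

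**Figure D2:**
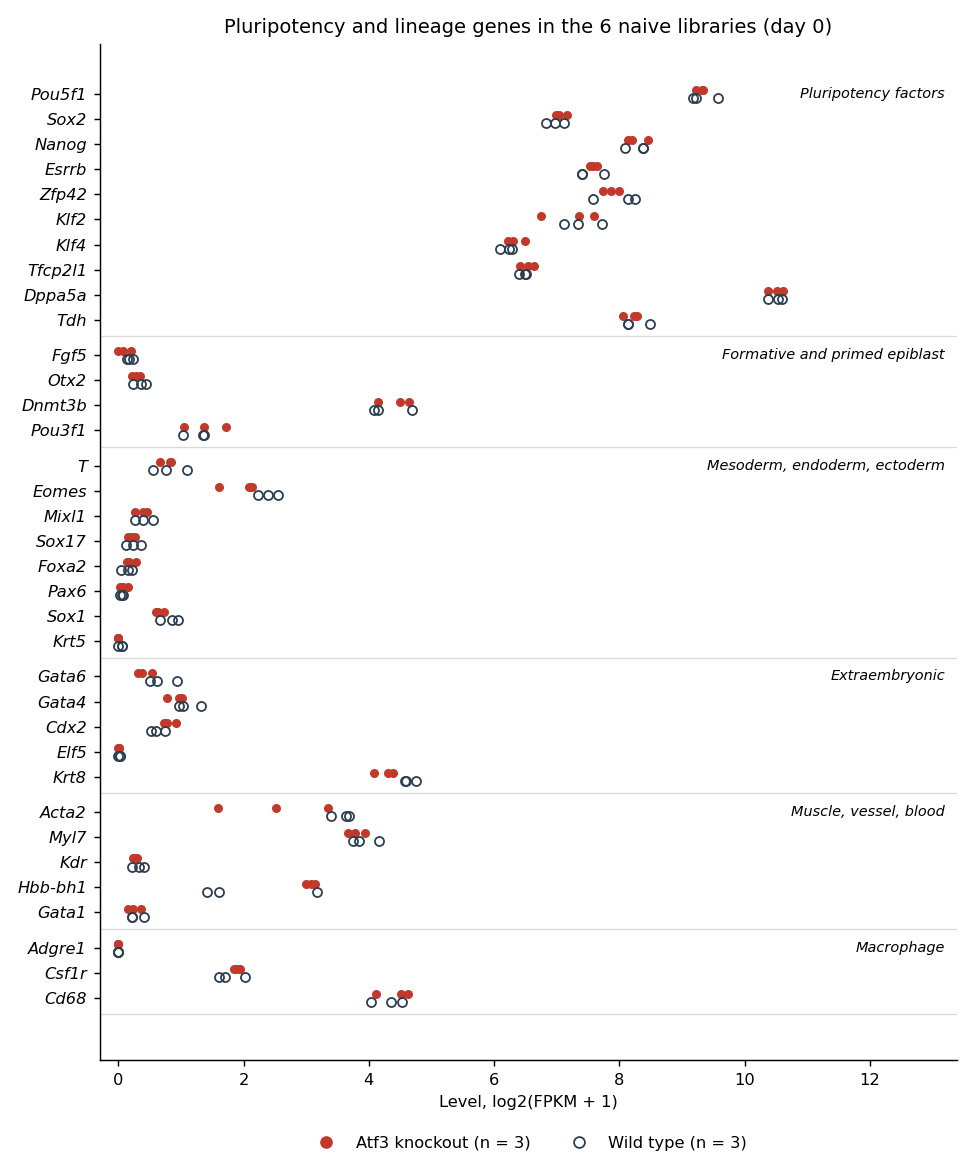
Levels of pluripotency, epiblast, lineage and macrophage genes in each library as log2(FPKM + 1), KO filled above WT open (n = 3 each). The pluripotency factors lie between 67.1 and 1559 FPKM in all 6 libraries, while Fgf5, Otx2, Pax6, Sox17 and Elf5 stay under 1 FPKM.

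Most lineage genes were off or nearly off. Of 250 genes on 13 lists of germ layer, extraembryonic, blood, vessel, muscle, fibroblast and macrophage genes, 152 (60.8%) stayed under 1 FPKM in all 6 libraries, and 13 were listed at 0 in all. Of the primitive streak genes, Mixl1 reached at most 0.472 FPKM and T (Brachyury) at most 1.13 FPKM. Sox17 of the endoderm reached 0.279 FPKM, Pax6 of the neural lineage 0.111 FPKM, and Elf5 of the trophoblast 0.0136 FPKM. The highest value of Kdr, a receptor of the vascular lineage, was 0.330 FPKM, and that of the endothelial cadherin Cdh5 was 0.193 FPKM. Of 13 macrophage genes Adgre1 (F4/80), Aif1 and C1qb were at 0 throughout. Ptprc (CD45), of all white blood cells, was at 0 as well. Of the 250 lineage genes 84 were tested, against 9743 of all 22040 protein-coding genes, so low levels were common outside these lists too. None of the 84 passed.

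The 45 lineage genes that reached 5 FPKM in at least 1 library included genes that stem cells are known to share with other tissues. Fn1 (fibronectin) had 128 to 139 FPKM in KO cells and 118 to 138 FPKM in WT cells, Cdh1 (E-cadherin) 86.0 to 97.4 FPKM in KO cells and 72.4 to 93.0 FPKM in WT cells, and Vim (vimentin) 38.8 to 55.7 FPKM in KO cells and 40.9 to 54.7 FPKM in WT cells. The basement membrane genes Sparc, Nid2 and Lamc1 had between 55.1 and 82.7 FPKM in all libraries. Nodal ligands and their inhibitors belong here too, with Tdgf1, the Nodal co-receptor, at 142 to 176 FPKM in KO cells and 125 to 193 FPKM in WT cells. Nodal itself had 37.7, 36.4 and 26.1 FPKM in KO cells, against 50.6, 40.4 and 36.2 FPKM in WT cells. Lefty2, a Nodal target and inhibitor, had 133, 122 and 95.4 FPKM in KO cells, against 136, 143 and 159 FPKM in WT cells, and each KO library lay below each WT library (log2 difference -0.33, adjusted p = 1 in limma). Eomes, a T-box factor induced by Nodal, had 3.39, 2.05 and 3.24 FPKM in KO cells, against 3.67, 4.26 and 4.87 FPKM in WT cells, again without overlap (log2 difference -0.45, adjusted p = 1 in limma). Among the 8 tested primitive streak genes, Lefty2 and Eomes were the 2 that did so, where over all tested genes 3.35% lay below. Their list's median was -0.31 (against -0.0027 over all genes), and none of the 8 passed.

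Others of these 45 are better known from differentiated tissues. Trh, the thyrotropin-releasing hormone precursor, listed here as an endoderm gene, was among the most abundant transcripts of all, at rank 34, with 756, 347 and 662 FPKM in KO cells, against 917, 513 and 522 FPKM in WT cells. The library that was highest was a WT one and the lowest a KO one, and the groups overlapped. Cdx1, a Wnt target, had 20.3, 20.4 and 15.1 FPKM in KO cells, against 27.3, 17.2 and 25.1 FPKM in WT cells. Myl7, an atrial myosin light chain, had 12.8, 11.7 and 14.3 FPKM in KO cells, against 17.0, 12.5 and 13.4 FPKM in WT cells, while the cardiac factor Nkx2-5 was at most 0.532 FPKM and Tnnt2 at most 0.186 FPKM. Stmn2, a neuronal tubulin regulator, had 29.0, 29.3 and 34.9 FPKM in KO cells, against 26.3, 28.9 and 26.9 FPKM in WT cells, and Tubb3 had 68.7, 73.1 and 60.4 FPKM in KO cells, against 94.1, 62.0 and 76.7 FPKM in WT cells. The KO values of Stmn2 lay above the WT values (log2 difference 0.17, adjusted p = 1 in limma) and those of Tubb3 did not separate.

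Genes of blood, vessels and epithelia showed the spread behind such medians. Hbb-bh1, an embryonic haemoglobin, had 6.99, 7.77 and 7.43 FPKM in KO cells, against 2.06, 1.66 and 8.06 FPKM in WT cells. The WT replicate 3 value lay with the KO values and the other WT values lay below them, so that the log2 difference was 1.0003 (95% interval 0.09 to 1.91, adjusted p = 1 in limma). It passed when WT replicate 3 was left out, with a difference of 1.56 (adjusted p = 0.0279 in limma). Hba-x, the embryonic alpha chain, had 3.32, 4.32 and 2.93 FPKM in KO cells, against 1.73, 1.42 and 3.06 FPKM in WT cells (0.58), in the same pattern. Gata1, the erythroid factor, was at most 0.333 FPKM. Pecam1, an adhesion molecule of endothelium that naive stem cells also carry, had 27.3, 34.3 and 23.7 FPKM in KO cells, against 21.5, 23.1 and 23.8 FPKM in WT cells, and Kit, a receptor of blood and germ cell precursors, had 20.8, 28.6 and 19.3 FPKM in KO cells, against 18.0, 17.2 and 17.6 FPKM in WT cells, above all WT values in each KO library. Epcam, an epithelial adhesion molecule, had 13.4, 14.2 and 19.0 FPKM in KO cells, against 8.85, 13.4 and 9.69 FPKM in WT cells (0.51). Krt8, a keratin of simple epithelia, had 20.02, 18.7 and 15.9 FPKM in KO cells, against 22.8, 23.2 and 26.1 FPKM in WT cells, with each KO library below each WT library (-0.39, adjusted p = 1 in limma). None of the 6 blood, 8 endothelial, 9 surface ectoderm and 8 trophoblast genes tested passed.

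The 20 most abundant protein-coding genes, leaving out ribosomal and mitochondrially encoded ones, were led by translation, chaperone, iron storage and cytoskeletal genes. Eef1a1, an elongation factor, averaged 2832 ± 294 FPKM in KO cells and 2838 ± 651 FPKM in WT cells, and Hsp90ab1, a chaperone, 1966 ± 83.8 FPKM in KO cells and 1912 ± 36.2 FPKM in WT cells (SD, n = 3 each). Ftl1 (ferritin light chain) averaged 1618 ± 97.3 FPKM in KO cells and 1922 ± 291 FPKM in WT cells, and Actb 1552 ± 228 FPKM in KO cells and 1607 ± 223 FPKM in WT cells. The rest, in order of level, were Lars2, Dppa5a, Gapdh, Ptma, Eef2, Eif5a, Tuba1b, Actg1, Tubb5, Fth1, Sod1, Pou5f1, Trh, Eef1g, Eif4a1 and Aldoa. Lars2 was highest in WT replicate 1 (1922 FPKM) and lowest in WT replicate 3 (1144 FPKM), as was the share of rRNA-type reads. Whether such reads add to the level of Lars2 was not tested. Dppa5a, Pou5f1 and Trh were the members of this set that are not expressed by nearly every cell type. Of the 50 highest protein-coding genes, 21 encoded ribosomal proteins and 3 lay on the mitochondrial genome. In both genotypes 9039 protein-coding genes had at least 1 FPKM in all 6 libraries.

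Target genes of the pathways that hold the state were compared as well. Of 18 LIF and STAT3 genes 17 were tested, none passed and all 17 had overlapping groups. Klf5, a Klf factor of the naive network, had 45.6, 43.8 and 48.5 FPKM in KO cells, against 46.0, 53.3 and 48.0 FPKM in WT cells, and the groups overlapped. Pim1 and Pim3, kinases induced by STAT3, averaged 45.3 ± 7.63 FPKM in KO cells and 41.9 ± 5.74 FPKM in WT cells for Pim1 and 51.0 ± 4.55 FPKM in KO cells and 59.3 ± 18.9 FPKM in WT cells for Pim3 (SD, n = 3 each). Of 23 Wnt targets 11 were tested, none passed, and all 11 overlapped. Notum, a secreted Wnt inhibitor that Wnt signalling induces, had 15.8, 13.7 and 16.9 FPKM in KO cells, against 16.7, 11.5 and 11.7 FPKM in WT cells, and Ccnd1 (cyclin D1) had 41.8, 33.5 and 33.9 FPKM in KO cells, against 43.2, 30.5 and 32.1 FPKM in WT cells. Among ERK targets, which the MEK inhibitor is known to hold down, Spry2, a feedback inhibitor, had 49.9, 44.7 and 33.4 FPKM in KO cells, against 49.4, 44.2 and 51.6 FPKM in WT cells, and Myc had 19.6, 17.3 and 10.7 FPKM in KO cells, against 17.4, 22.8 and 27.1 FPKM in WT cells. Both were lowest in the KO library that has no number. Some other ERK genes went the other way, with Spry4, Dusp6, Dusp4 and Ier3 higher there than in the other KO libraries. Of the 17 tested ERK genes none passed, and 7 intervals lay within 2-fold, against 97.2% of all genes. Spred2, an ERK pathway inhibitor and the 1 ERK gene whose groups stood apart, had 22.1, 23.5 and 24.6 FPKM in KO cells, against 19.4, 20.5 and 18.9 FPKM in WT cells (log2 difference 0.24, adjusted p = 1 in limma). Among all tested genes KO lay above in 3.63% and below in 3.35%.

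DNA methylation, cell cycle and metabolism were described in the same way. Uhrf1, which guides maintenance methylation, averaged 195 ± 11.7 FPKM in KO cells and 202 ± 41.1 FPKM in WT cells, and Dnmt1, the maintenance methyltransferase, averaged 52.7 ± 1.10 FPKM in KO cells and 49.8 ± 1.47 FPKM in WT cells (SD, n = 3 each). Of 12 tested methylation genes none passed. KO values lay above WT values for 2 of them, Dnmt1 (log2 difference 0.08) being 1, against 3.63% of all tested genes. Replication genes were high, with Mcm5, a helicase subunit, at 181, 178 and 186 FPKM in KO cells, against 248, 198 and 195 FPKM in WT cells. Its groups stood apart (log2 difference -0.23, adjusted p = 1 in limma), the 1 such gene of 33 tested cell cycle genes. Of all tested genes 3.35% lay below in this way and 3.63% above. Cdkn2a, the locus of the inhibitors p16 and p19ARF, had 3.65, 4.25 and 6.67 FPKM in KO cells, against 7.08, 7.76 and 6.46 FPKM in WT cells, with a log2 difference of -0.50 and overlapping groups. None of the 33 passed, and 32 intervals lay within 2-fold. Of 26 tested glycolysis and hypoxia genes none passed and the list's median was 0.05. Bnip3, a mitophagy receptor that hypoxia induces, had the largest difference of them, with 9.76, 20.1 and 19.8 FPKM in KO cells, against 9.00, 11.7 and 12.95 FPKM in WT cells (0.47). The 17 threonine, serine and one-carbon genes, which feed methylation in mouse stem cells, were all tested, none passed, and all 17 had overlapping groups and intervals within 2-fold. Gldc, the glycine decarboxylase gene, had the largest difference of these, with 65.6, 64.6 and 70.0 FPKM in KO cells, against 69.8, 51.4 and 44.6 FPKM in WT cells (0.29).

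Germline genes and genes of the Nodal, activin and BMP pathways were also compared. Tex19.1, a germline gene also known from stem cells, had 62.4, 79.1 and 61.8 FPKM in KO cells, against 89.0, 76.7 and 63.2 FPKM in WT cells, and Tfap2c had 12.2, 16.2 and 7.85 FPKM in KO cells, against 12.2, 8.14 and 7.78 FPKM in WT cells. All 9 tested germline genes had overlapping groups and none passed. Bmp4, the ligand, had 12.2, 8.45 and 16.2 FPKM in KO cells, against 13.9, 18.7 and 17.7 FPKM in WT cells. Id1, which BMP signalling induces and which is known to hold back neural differentiation, had 12.95, 11.3 and 22.9 FPKM in KO cells, against 20.3, 28.0 and 15.3 FPKM in WT cells, and Id3 had 16.7, 15.0 and 8.76 FPKM in KO cells, against 18.7, 14.8 and 19.4 FPKM in WT cells. Of 22 tested Nodal, activin and BMP genes 20 had overlapping groups and none passed. The list's median was -0.13.

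The other members of the family of ATF3 were expressed at their own levels in both lines, and none of the 24 tested of 33 AP-1 and ATF genes passed. Atf4, the effector of the integrated stress response, had 116, 137 and 93.8 FPKM in KO cells, against 134, 118 and 118 FPKM in WT cells. Jund had 50.6, 68.9 and 79.2 FPKM in KO cells, against 78.5, 91.0 and 66.1 FPKM in WT cells, and Atf5 averaged 28.2 ± 3.90 FPKM in KO cells and 30.3 ± 3.53 FPKM in WT cells (SD, n = 3 each). For these 3 genes the groups overlapped. Atf1, a CREB relative, had KO values above WT values, at 25.4, 22.7 and 24.4 FPKM in KO cells, against 20.99, 22.5 and 21.5 FPKM in WT cells (log2 difference 0.15, adjusted p = 1 in limma), and Atf7 did so too (0.17). Of the 24 tested, these 2 lay above and 1, Atf3, lay below, against 3.63% and 3.35% of all tested genes. Junb, a dimer partner of ATF3, had 8.09, 11.7 and 12.9 FPKM in KO cells, against 11.7, 19.8 and 14.2 FPKM in WT cells. Besides Atf3, the largest difference on the list was that of Fos (-0.83), and the list's median was 0.01.

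Genes of the integrated stress response, through which ATF4 raises Atf3, did not separate the lines. Of 36 genes 34 were tested, none passed, and all 34 had overlapping groups, with a median difference of 0.00. Asns, the asparagine synthetase gene, had 251, 327 and 255 FPKM in KO cells, against 246, 283 and 285 FPKM in WT cells. Ddit3 (CHOP) had 4.68, 4.86 and 7.31 FPKM in KO cells, against 5.00, 4.94 and 2.98 FPKM in WT cells, and Stc2, a secreted glycoprotein, had 1.08, 1.73 and 1.64 FPKM in KO cells, against 1.22, 0.788 and 0.924 FPKM in WT cells. Chac1, a glutathione-degrading enzyme, had 4.61, 10.8 and 2.87 FPKM in KO cells, against 8.32, 2.30 and 3.41 FPKM in WT cells. The values of Chac1 were high in KO replicate 2 and WT replicate 1 and low in the others, so that its log2 difference of 0.31 had an interval of -0.74 to 1.36. Of 23 p53 target genes 21 were tested and none passed, and 20 had overlapping groups. Cdkn1a (p21) averaged 74.7 ± 8.33 FPKM in KO cells and 68.3 ± 13.2 FPKM in WT cells (SD, n = 3 each).

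Immediate early genes, which growth factors and handling induce within minutes, were uneven within each genotype. Egr1 had 1.18, 69.9 and 32.5 FPKM in KO cells, against 1.99, 170.1 and 72.7 FPKM in WT cells. It was almost absent from replicate 1 of both genotypes and highest in WT replicate 2, so that its log2 difference of -0.95 had an interval of -4.64 to 2.73. Fos had 2.65, 10.9 and 5.17 FPKM in KO cells, against 3.38, 20.8 and 14.9 FPKM in WT cells, and was also lowest in replicate 1 of both genotypes. Arc had 9.32, 13.2 and 21.2 FPKM in KO cells, against 9.86, 48.8 and 14.004 FPKM in WT cells, and Ctgf, a YAP target, had 4.30, 5.07 and 5.84 FPKM in KO cells, against 5.46, 17.5 and 6.77 FPKM in WT cells, both highest in WT replicate 2. WT replicate 2 was also the WT library with the highest Atf3. Ier2 was the member nearest to a genotype difference, with 78.4, 109.9 and 79.8 FPKM in KO cells, against 104, 141 and 132 FPKM in WT cells (log2 difference -0.50, adjusted p = 1 in limma). None of the 18 tested of 22 immediate early genes passed, all 18 had overlapping groups, and the list's median was -0.36. Of the 18 intervals 8 lay within 2-fold, against 97.2% of all genes.

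The KO library without a replicate number had a set of high genes, some of them next highest in WT replicate 2, which has the same column number. Of the tested genes at 5 FPKM or more in their highest library, 13 were at least 2-fold above the next library there, against 1 to 11 in the other 5 libraries. Ier3, an ERK target, had 3.86, 4.59 and 32.1 FPKM in KO cells, against 7.66, 6.93 and 4.23 FPKM in WT cells. Ddit4, a stress-induced inhibitor of mTORC1, had 15.0, 18.5 and 53.8 FPKM in KO cells, against 20.3, 18.2 and 10.3 FPKM in WT cells. Dusp4, an ERK phosphatase, had 13.2 FPKM in that KO library, 4.29 FPKM in WT replicate 2 and at most 1.53 FPKM elsewhere. Bhlhe40 had 6.11, 7.51 and 28.6 FPKM in KO cells, against 8.55, 13.6 and 6.10 FPKM in WT cells, also next highest in WT replicate 2. Ier3, Ddit4 and Gata2 were instead next highest in other libraries. The Notch ligand Dll1, too low elsewhere to be tested, had 7.32 FPKM in the KO library without a number and at most 0.609 FPKM elsewhere. Gata2 had 2.11, 2.70 and 8.35 FPKM in KO cells, against 2.41, 1.90 and 1.43 FPKM in WT cells. WT replicate 2 had 11 genes at least 2-fold above the next library, Egr1, Arc, Ctgf, Cyr61 and Phlda1 among them. These library-specific genes were chosen after their values were seen.

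**Figure D3:**
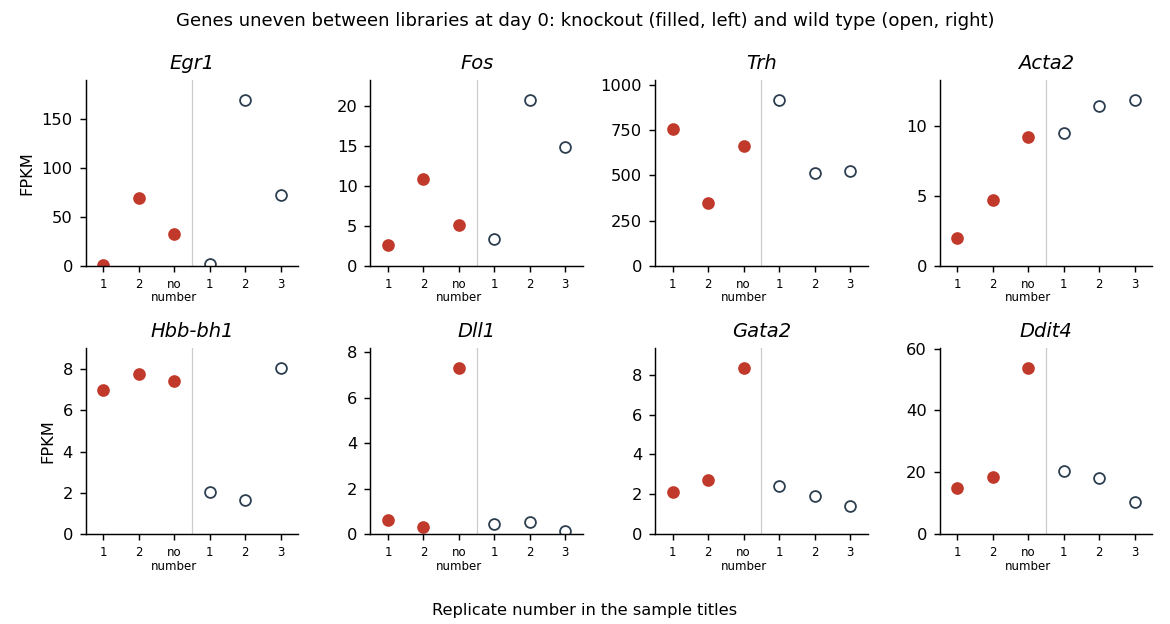
FPKM of 8 genes in each library at day 0, with KO libraries on the left and WT libraries on the right of each panel. Egr1 and Fos are lowest in replicate 1 of both genotypes, Acta2 is lower in all KO libraries, and Dll1, Gata2 and Ddit4 are high in the KO library that has no number.

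Over the whole table the differences between the genotypes were small. In limma with Benjamini-Hochberg adjustment, 1 of 11762 genes passed (0.0085%), and 286 (2.43%) had an unadjusted p under 0.05, 139 of them higher and 147 lower in KO cells. A log2 difference beyond 1 was seen for 26 genes (0.221%), 10 higher and 16 lower in KO cells. The median size of the difference was 0.08 and 95% of genes differed by less than 0.31 on the log2 scale. Without WT replicate 1 the median size was 0.12, and 1773 genes (15.1%) had an unadjusted p under 0.05 in limma. With GC correction as well there were 1186 such genes (10.1%), and no gene passed adjustment in either fit. For 97.2% of genes the 95% interval lay within 2-fold on this scale, and for 91.1% with voom on the reads. The labels do not say whether the 3 libraries of a group were separate cultures, so these p-values measure the spread between libraries, which may be technical.

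The gene that passed was AC161763.1, a lincRNA of 168 exonic bases (mm10 chr7:144914470-144914637, plus strand), and it was higher in KO cells. It had 1.39, 1.69 and 1.72 FPKM in KO cells and 0 in all WT cells, from 3, 4 and 4 reads against 0. Its log2 difference was 1.38 (adjusted p = 0.035 in limma). Against a floor of 3 reads over the WT group it was 3.28-fold higher, with the KO reads taken as exact. It entered the test through the KO libraries alone, where it had to be high, and with no filter it did not pass (adjusted p = 0.0617 in limma). The call was lost when any 1 of the 6 libraries was left out (adjusted p = 0.0597 to 0.344 in limma). With the numbers of the data columns as a replicate block it did not pass either (adjusted p = 0.117 in limma, and 0.218 with GC correction as well). In the fit of all 24 libraries it did not pass (adjusted p = 0.866 in limma) and 2 others did (0.017% of genes).

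These were Nkx6-3 and Mir7230. Nkx6-3, a homeobox factor (chr8:23153269-23158948, plus strand), was lower in KO cells, with 0.974, 0.636 and 0.743 FPKM in KO cells, against 2.18, 2.52 and 3.03 FPKM in WT cells, from 20 to 28 reads in KO libraries and 54 to 85 reads in WT libraries. Every KO value lay below every WT value. Its log2 difference of -1.0002 had adjusted p = 6.99e-06 with 24 libraries and 0.214 with the 6 day 0 libraries in limma. It entered the test through the WT libraries alone, and it was near 0 at every later day in both genotypes. Mir7230 (chr5:113337590-113337645, minus strand), a miRNA gene of 56 bases, had 2, 1 and 1 reads in KO libraries and 0 in WT libraries. Against a floor of 3 reads over the WT group that was 1.19-fold, with the KO reads taken as exact, so it sets no lower bound. The adjusted p of Mir7230 in limma was 5.49e-06 with 24 libraries and 0.214 with 6. It too entered the test through 1 group, KO, and the 24-library value takes its spread largely from libraries at 0, so it lends no support to a difference.

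**Figure D4:**
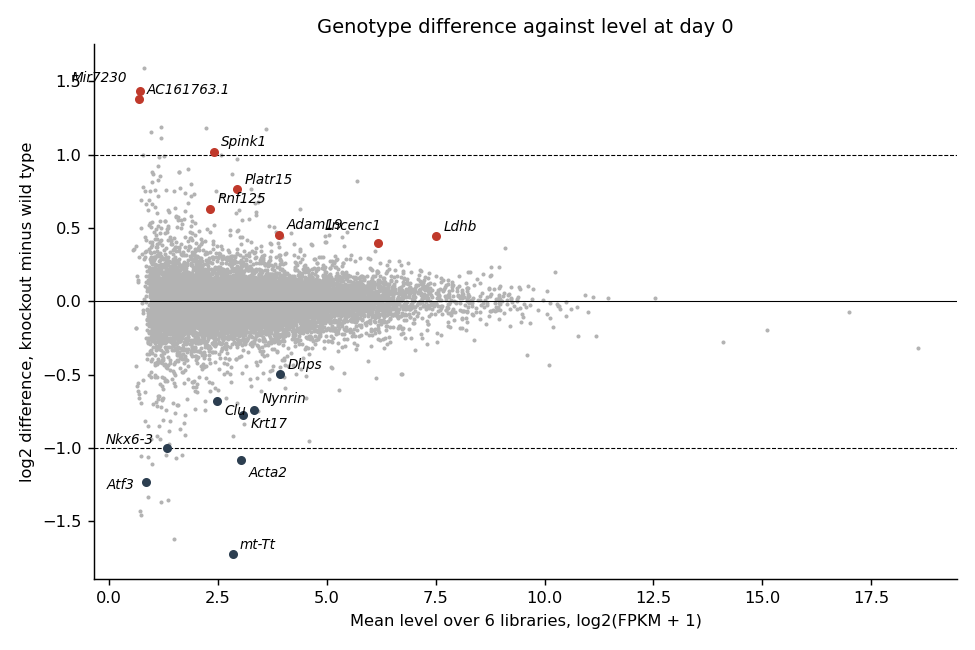
The log2 difference, KO minus WT, of each tested gene against its mean level over the 6 libraries, as log2(FPKM + 1), with dashed lines at a 2-fold difference and named genes coloured by sign. Of 11762 genes 26 lie outside the dashed lines.

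Below the threshold, the genes with separate groups and a mean of at least 5 FPKM in the higher group were ranked by size, and of the 10 lowest and 10 highest differences none passed (adjusted p at least 0.318 in limma). Nynrin, a retrovirus-derived gene with a nuclease-type domain (chr14:55854010-55874736, plus strand), had 6.74, 7.12 and 6.42 FPKM in KO cells, against 12.4, 10.7 and 13.1 FPKM in WT cells, with a log2 difference (KO minus WT on the FPKM + 1 scale, as are the values in brackets) of -0.75 and the interval -1.02 to -0.47. It overlaps the antisense gene Gm26751, and since no strand setting is given the reads of the pair cannot be told apart. Clu, a secreted chaperone, had 3.24, 3.81 and 3.26 FPKM in KO cells, against 6.38, 6.36 and 5.54 FPKM in WT cells (log2 difference -0.68, 95% interval -0.95 to -0.40). Dhps, the enzyme that starts hypusine formation on eIF5A, had 13.2, 10.8 and 11.4 FPKM in KO cells, against 18.9, 15.5 and 16.8 FPKM in WT cells (log2 difference -0.50, 95% interval -0.78 to -0.21). Each had tight values within a genotype. Krt17, a keratin, had 5.07, 8.07 and 3.87 FPKM in KO cells, against 9.37, 9.65 and 11.3 FPKM in WT cells (-0.78), and Acta2, smooth muscle actin, had 2.01, 4.75 and 9.22 FPKM in KO cells, against 9.52, 11.4 and 11.9 FPKM in WT cells (-1.08). The KO values of Acta2 spread widely, and its highest KO library came close to the lowest WT library. The lowest difference was that of mt-Tt, a mitochondrial tRNA gene of 67 bases (-1.73), which passed with the column numbers as a replicate block (adjusted p = 0.0168 in limma) but not with GC correction added to it (adjusted p = 0.196). Tlx2 (-0.66), Dnttip2 (-0.60), the snoRNA Snora57 (-0.60) and Dhrs4 (-0.49) completed the 10.

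Higher in KO cells were Spink1, a serine protease inhibitor, with 6.64, 8.09 and 5.14 FPKM in KO cells, against 2.35, 1.86 and 4.35 FPKM in WT cells (log2 difference 1.02, 95% interval 0.47 to 1.57), and the long noncoding RNA Platr15, with 6.49, 9.91 and 11.2 FPKM in KO cells, against 3.88, 6.12 and 4.88 FPKM in WT cells (0.76). Ldhb, the B subunit of lactate dehydrogenase, was the most abundant of them, with 188, 229 and 221 FPKM in KO cells, against 185, 156 and 131 FPKM in WT cells (log2 difference 0.44, 95% interval 0.11 to 0.77). The gap between its groups was small, 188 against 185 FPKM at the nearest libraries. Lncenc1, a noncoding RNA of stem cells, had 87.3, 84.9 and 75.7 FPKM in KO cells, against 74.9, 59.2 and 54.4 FPKM in WT cells (0.40). Tdrd12, a Tudor domain protein of the piRNA pathway, had 7.57, 8.81 and 10.8 FPKM in KO cells, against 4.53, 7.39 and 5.81 FPKM in WT cells (0.55), and the E3 ligase gene Rnf125 had 6.01, 4.85 and 4.77 FPKM in KO cells, against 1.96, 3.64 and 3.65 FPKM in WT cells (0.63). Klhl13 (0.48), Adam19 (0.45), Mnd1 (0.44) and Prr11 (0.40) completed the 10. All 20 were ranked by the size of the difference, so their separation is a description.

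Among genes that mark other cell types, some low ones had KO values below their WT values, while most of each list overlapped. Of the tested extraembryonic endoderm genes 3 of 13 lay below in KO cells and 10 overlapped (median -0.18), of smooth muscle genes 3 of 7 and 4 (median -0.12), and of fibroblast and feeder genes 3 of 11 and 8 (median -0.10). Over all tested genes 3.35% lay below, with a median of -0.0027, and since genes that are low in KO cells could enter through WT libraries alone, as Afp and Col3a1 did, these counts are a description. Afp, the fetal serum protein of extraembryonic endoderm, had 0.116, 0.232 and 0.0859 FPKM in KO cells, against 1.55, 1.58 and 1.04 FPKM in WT cells (log2 difference -1.06, adjusted p = 0.214 in limma). The collagen genes Col4a1 and Col4a2, which are neighbours, had log2 differences of -0.29 and -0.40, with KO values below WT values for both. Others of that list had higher means in KO cells, such as Lama1, a laminin chain, with 17.6 ± 2.35 FPKM in KO cells and 16.6 ± 2.57 FPKM in WT cells, and Ttr, transthyretin, with 1.93 ± 0.541 FPKM in KO cells and 1.66 ± 0.696 FPKM in WT cells (SD, n = 3 each). Among smooth muscle genes Tagln, an actin-binding protein, had 1.84, 2.15 and 4.08 FPKM in KO cells, against 4.58, 5.24 and 5.09 FPKM in WT cells (-0.74), and of 7 tested genes Acta2, Tagln and Tpm1 had KO values below WT values. Col3a1, a fibrillar collagen, had 0.0317, 0.355 and 0.671 FPKM in KO cells, against 1.19, 1.56 and 1.28 FPKM in WT cells (-0.82), and Col1a1 had 0.842, 1.27 and 1.40 FPKM in KO cells, against 2.05, 1.84 and 1.98 FPKM in WT cells (-0.45). None passed. The 15 of 20 fibroblast and feeder genes that stayed under 5 FPKM in all libraries had a summed level of 10.6, 13.5 and 11.2 FPKM in KO cells, against 16.2, 14.1 and 14.5 FPKM in WT cells. S100a4 was at 0 in all libraries, and the sum of the whole list was 300.2 to 331 FPKM in KO cells and 294 to 367 FPKM in WT cells. In bulk RNA, fewer cells of a type and less RNA per cell cannot be told apart, and the part of other cells in these differences was not tested.

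Genes of the Y chromosome, too low for the test, also stood apart between the lines. Eif2s3y, a translation factor subunit, had 0 reads in all 3 KO libraries and 15, 43 and 27 reads in the WT libraries. Against a floor of 3 reads over the KO group it was 31.7-fold higher in WT cells, with the WT reads taken as exact. Its level in WT cells was 0.325, 0.810 and 0.517 FPKM. Ddx3y, an RNA helicase, had 0 reads in the KO libraries and 6, 7 and 13 reads in the WT libraries. Uty had 0, 1 and 0 reads in KO libraries against 5, 8 and 8 reads in WT libraries, and Kdm5d had none in either. Xist, the RNA that coats the inactive X chromosome, had 24, 21 and 42 reads in KO libraries and 20, 31 and 17 reads in WT libraries, at most 0.170 FPKM. In the 9 later libraries of each genotype, Eif2s3y had 0 to 3 reads in KO and 1 to 225 reads in WT cells. No test was made on these genes. The labels do not say whether the KO and WT lines come from the same parent line, and their batch entry, where given, repeats the group, so in every KO minus WT value here loss of Atf3 cannot be told apart from other differences between the lines.

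The size of the genotype effect was set against other differences in the same fit of 24 libraries and the same genes. Between KO and WT cells 2 genes passed for day 0 (0.017%), 1 for day 3, 20 for day 6 and 20 for day 9. By median, the size of the log2 difference was 0.08 for day 0, 0.09 for day 3, 0.23 for day 6 and 0.14 for day 9. Between day 3 and day 0 within WT cells, 3042 genes passed and the median size was 0.37. The genotype difference at a later day, less that at day 0, passed for 2 genes at day 3 (0.017%), 6 at day 6 (0.051%) and 3 at day 9 (0.0255%). Nkx6-3 and Mir7230 were among them at each of these days and were the only ones at day 3. Both entered through 1 group at day 0 and were at or near 0 later, so their values restate the day 0 difference. Of the abundant genes of the naive state, Trh was among the 6. Its log2 difference at day 6 less that at day 0 was -3.26 (adjusted p = 0.0238 in limma), and at day 6 it averaged 33.2 ± 20.6 FPKM in KO cells and 353 ± 162 FPKM in WT cells (SD, n = 3 each). Library depth spread more at later days and was not matched here, and the genes were those expressed at day 0.

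**Figure D5:**
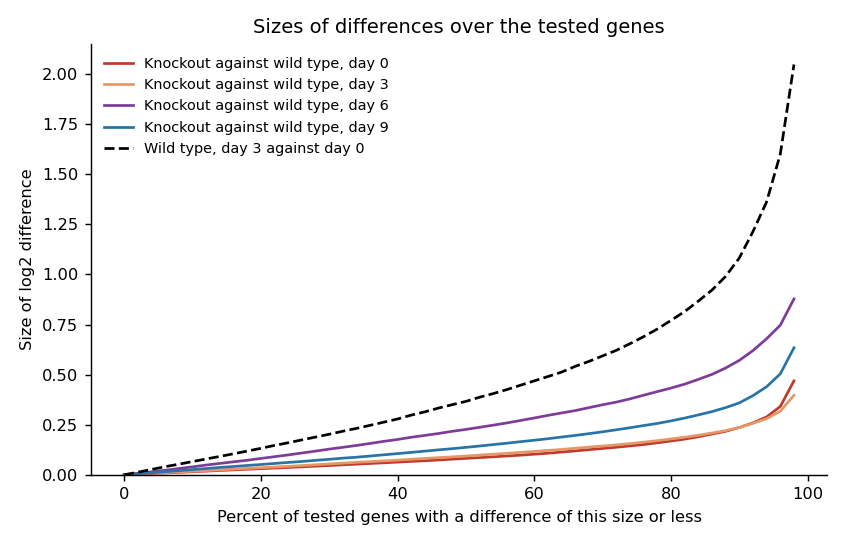
Size of the log2 difference (vertical axis) that a given percent of the 11762 tested genes does not exceed (horizontal axis, up to 98%), for KO against WT cells at each day and for WT cells at day 3 against day 0. The day 0 and day 3 curves nearly coincide, with medians of 0.08 and 0.09, and the WT day 3 against day 0 curve lies highest, with a median of 0.37.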

How the data were processed

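RNA-seq of 24 libraries in 8 groups of 3 was deposited by the authors as 1 table of FPKM values. The submitters' processing notes name HISAT2 2.2.1, build mm10, featureCounts 2.0.1, Trimmomatic 0.39, FastQC 0.11.9, R 4.1.0 and DESeq2 1.30.1, in no stated order, and give no strand setting. The values move in steps of 1 read, and 96.0% to 96.3% of day 0 values of up to 50 reads came out within 0.05 of a whole read. They gave 14230245 to 16920617 reads a library, and outside rRNA-type genes 10278207 to 12308007. Floors of reads cover counting error of the group at 0 only, and not that of the other group. The 95% intervals are those of limma and rest on the spread between libraries.

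The test was limma 3.58.1 (R 4.3.3) on log2(FPKM + 1) of the 6 day 0 libraries, with a trended prior, Benjamini-Hochberg adjustment over all tested genes and a threshold of 0.05. A called gene is one with an adjusted p below it. A fold change on this scale understates that of low genes. Read-based tests used voom weights on the recovered reads. Tables and figures were made in Python 3.11.15, and the fit was tested on simulated data. Between replicates of a group the chi-square per degree of freedom over genes was 9.23 to 50.6, where sampling noise alone gives about 1. It is a ratio of variances, scaled to total reads with rRNA-type genes among them. Each replicate counted as 1 sample. The labels tie the column of 1 KO library to its genotype and day, but not to a numbered title, and it is called the library without a number. Its column number is 2, while KO replicate 2 has column number 3. The title left over in its group is that of replicate 3. Whether replicate numbers pair the libraries is unsettled. Deviations of libraries with the same column number correlated at r = 0.147, 0.329 and 0.0711 as deposited, and at 0.204, 0.314 and 0.156 after GC correction. Every other pair of a KO and a WT library then had a negative r, from -0.236 to -0.013. The fit without a block was kept as the main one, so its p-values leave out a possible pairing by column number. Blocked values are given where a call changes.

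The genes compared and the lists were chosen with earlier results of these data known. Named were Atf3, the 20 most abundant genes, of each list the 6 of highest level and the 4 of largest difference, lineage genes of 5 FPKM or more, called genes, and the 10 highest and 10 lowest differences with separate groups and at least 5 FPKM. Lineage genes near 0, library-specific genes, Atf1, Atf7, Foxd3, Ttr, Zfp57 and the values of whole chromosomes were chosen after the values were seen. Alternatives were other pseudocounts, filters and scalings, voom, blocks, all 24 libraries and leaving out each library. GC correction (alone and with the column numbers as a block), a length limit and voom without WT replicate 1 were added after seeing the data.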

Additional observations from a re-analysis of the deposited data

Results flagged for a closer look

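The genotype difference at a later day, less that at day 0, was tested in limma with all 24 libraries, and 7 genes passed after adjustment over 11762 genes. No explanation was tested. Nkx6-3 differed by 0.97 for day 3 (adjusted p = 0.00289 in limma), 1.02 for day 6 (adjusted p = 0.00144) and 0.99 for day 9 (adjusted p = 0.00215). Its mean was 0.784 ± 0.173 FPKM in KO and 2.58 ± 0.428 FPKM in WT cells at day 0 (SD, n = 3 each), and later it had 0 to 2 reads in any library. Mir7230 differed by -1.43 for each later day (adjusted p = 0.0017, 0.00144 and 0.0017 in limma), from 4 reads in all, every one of them in KO libraries at day 0. Since both genes were tested because of 1 genotype at day 0 and were at or near 0 later, these values restate their day 0 differences, whose adjusted p with the 6 day 0 libraries was 0.214 for both in limma, and they are no separate evidence.

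Of the genes that are on at day 0, Trh had a difference of -3.26 for day 6 (adjusted p = 0.0238 in limma). At day 6 it had 57.0, 20.7 and 21.8 FPKM in KO cells, against 334, 202 and 524 FPKM in WT cells, and the groups did not overlap, whereas at day 9 all KO values, 54.4 to 64.8 FPKM, lay above all WT values, 15.2 to 30.8 FPKM. Sfrp1, a secreted Wnt antagonist, had -2.40 for day 6 (adjusted p = 0.0193 in limma), with means of 2.24 ± 1.35 FPKM in KO and 16.9 ± 3.42 FPKM in WT cells at day 6. Cdkn1c, a cell cycle inhibitor, had -2.01 for day 6 (adjusted p = 0.0304 in limma), with 1.02 ± 0.609 FPKM in KO and 5.74 ± 0.940 FPKM in WT cells. The clone gene AC114678.1 had -1.54 for day 6 (adjusted p = 0.0493 in limma). Apobec2 had 1.89 for day 9 (adjusted p = 0.0377 in limma), with 3.88 ± 1.78 FPKM in KO and 0.647 ± 0.121 FPKM in WT cells at day 9.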

How the results depend on the processing

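The count of 1 called gene was 0 with a pseudocount of 0.1, no filter, the filter at 5 FPKM, voom, GC correction, genes of at least 200 bases, and GC correction or voom without WT replicate 1. It was 2 with all 24 libraries and 0 to 3 when each library was left out, the 3 being Mir1957a, Hbb-bh1 and Mir409 without WT replicate 3. A replicate block on the column numbers called 1 gene, mt-Tt, and lost AC161763.1, and with GC correction added it called 0. A replicate block on the title numbers, which leaves 1 residual degree of freedom, called 89, and Atf3 differed by -1.38 (adjusted p = 7.98e-06 in limma). Its genotype difference comes from replicates 1 and 2 only, since WT replicate 3 and the KO library without a number had no partner in it. The pairs of title numbers deviated together with r = 0.147 and -0.151, so they do not pair the libraries. For the column numbers 1 of the 3 pairs fell under 0.1 as deposited and none did after GC correction. Each library correlated best with its own column number. With 3 pairs this pairing stays unsettled, and the p-values without a block leave it out. Intervals within 2-fold numbered 26329 of 27246 genes with no filter and 6591 of 6680 at 5 FPKM, and 11298 to 11372 when each library was left out. They were fewer with a pseudocount of 0.1 (10824, 92.0%), voom (10717, 91.1%) and all 24 libraries (10712, 91.1%). Voom without WT replicate 1 gave the fewest of 11762 genes (10414, 88.5%). Atf3 ranged from -1.41 to -0.95 when each library was left out, and stayed negative in all settings.

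Of 40 further named genes 34 kept their direction in every one of the 22 alternatives that tested them. Many of the 40 were picked because their groups stood apart. For such genes, leaving out a library, another pseudocount or another filter cannot turn the direction. Their part of the count follows from the choice and is no test of stability. The title block turned Ddit4 to -0.19, Ddit3 to -0.0498, Gbx2 to 0.00360 and Spp1 to 0.10. When each library was left out, Egr1 ranged from -2.70 to 0.54, Gbx2 from -0.64 to 0.0353, Chac1 from -0.14 to 0.74 and Spp1 from -0.46 to 0.0385. The causes were not tested. Rescaling to TPM moved the median of all genes by 0.15, and unadjusted calls were then 452 up and 42 down, against 139 and 147. Equal sums without rRNA-type genes gave 198 and 124. Over all settings the adjusted p of AC161763.1 ranged from 1.77e-05 to 0.866, of Nkx6-3 from 6.99e-06 to 0.840 and of Mir7230 from 2.37e-07 to 1 in limma. Differences of genes near 1 FPKM rest on few reads.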

Other observations

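Genes were also grouped by chromosome, after their values had been seen, and DNA copy number was not measured. On chromosome 8 the 663 tested genes had a median log2 difference of -0.09, and 21.4% of them were higher in KO cells. Their library medians, relative to all libraries, were -0.046, -0.032 and -0.055 in KO cells, against 0.044, 0.014 and 0.073 in WT cells, and the groups did not overlap. After GC correction the median was still -0.09, but WT replicate 1 then lay at -0.047, among the KO libraries. On chromosome 11 the 1084 genes had a median of 0.07, with 73.6% higher in KO cells. Its library medians were 0.041, 0.054 and 0.022 in KO cells, against 0.131, -0.098 and -0.122 in WT cells, with WT replicate 1 above the KO libraries. On chromosome 14 the 384 genes had a median of -0.07, with 26.3% higher in KO cells. Its library medians were -0.034, -0.039 and -0.029 in KO cells, against -0.033, 0.056 and 0.082 in WT cells, with WT replicate 1 among the KO libraries. For each of the other 17 chromosomes the median lay between -0.017 and 0.010. Without WT replicate 1 that range was wider as deposited, -0.041 to 0.069. Chromosome 8 was then at -0.087, little beyond the others in size, chromosome 11 at 0.149 and chromosome 14 at -0.106. With GC correction as well, the range of the other 17 was -0.025 to 0.021. On that scale chromosome 8 was at -0.127, chromosome 11 at 0.111 and chromosome 14 at -0.098, all well beyond it. Over the settings, less the median of all genes, chromosome 8 ranged from -0.129 to -0.031, chromosome 11 from 0.038 to 0.147 and chromosome 14 from -0.155 to -0.018. At days 3, 6 and 9 the genotype difference of the chromosome 11 median was -0.001, 0.066 and 0.106, that of chromosome 8 was -0.015, -0.020 and 0.057, and that of chromosome 14 was -0.035, 0.055 and -0.017.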
